A study of Mus musculus with 3 samples.

Results

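The genes described here were 4 receptor genes of the interleukin-1 (IL-1) family, Il1r2 (ENSMUSG00000026073), Il1rl1 (ENSMUSG00000026069), Il18r1 (ENSMUSG00000026070) and Il18rap (ENSMUSG00000026068). They were taken by symbol from the 33696 genes of the count tables, and the set was picked because values of these same libraries, Il1r2 in particular, had drawn attention to it. The levels between libraries and the genes that accompanied Il1r2 are therefore descriptions, without a test. Live cells positive for Thy1.1 and CD8 were sorted from B16F10 melanomas on day 18 after tumor injection and profiled by droplet single-cell RNA-seq. They were TCR-transgenic pmel T cells, which recognize the melanoma antigen gp100. They were activated with gp100 peptide and kept in 10 nM cytokine until day 6 of culture. On day 5 after tumor injection they were transferred into tumor-bearing Thy1.2+ C57BL/6J mice that had received 6 Gy of radiation. The mice were purchased at 5 to 6 weeks of age.

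Each of 3 groups was 1 library. In the sIL-2 group, cells were preconditioned with sIL-2, an engineered high-affinity form of IL-2 (super IL-2), and the mice then received sIL-2. In the sIL-2 + IL-21 group, cells were preconditioned with both cytokines, but the mice received sIL-2 alone. In the IL-2/21-Trikine group, cells and mice both received the Trikine, a single molecule that engages the IL-2 and IL-21 receptors. All groups had 4 intraperitoneal doses of 2.5 μg, spaced by 48 h. By the labels and methods, the sIL-2 and sIL-2 + IL-21 libraries thus differed in the cytokine of the culture before transfer, whereas the Trikine library differed in culture and in treatment. How many mice were pooled into a library is not given in the sources used here. With 1 library per group there was no replicate check, and every interval below covers counting error only, at 95% confidence.

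After the study's cell limits, 7760 cells remained for sIL-2, 13299 for the Trikine library and 9798 for sIL-2 + IL-21, with medians of 12882.5, 10254 and 14055.5 unique molecular identifiers (UMIs, each a captured transcript) per cell. Markers of T cells were found in 99.4%, 98.4% and 98.97% of these cells. Pairs of libraries shared 18 to 43 cell barcodes. Barcodes with UMIs of at least 3 of 14 myeloid markers, or with at least 10 UMIs of S100a8, S100a9 and Cxcl2, numbered 28, 49 and 20, and here and below such values are given with the sIL-2 library first, then the Trikine library, and the sIL-2 + IL-21 library last. They are called myeloid-marked barcodes below, by a limit set after the data were seen. The summed level of all 14 markers was 35.8, 26.9 and 24.4 CPM (UMIs scaled to an equal library total), and each of the 14 had UMIs in every library.

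Receptors of this family carry the signals of IL-1, IL-18 and IL-33. Il1r2 encodes the type 2 IL-1 receptor, a decoy that binds IL-1 but lacks the intracellular signaling domain and can be shed from the cell surface. Il1rl1 encodes ST2, the receptor for the alarmin IL-33, known from type 2 and regulatory cells and also from activated effector CD8+ T cells. Il18r1 and Il18rap encode the ligand-binding and the accessory chain of the IL-18 receptor, through which IL-18, together with IL-12, drives IFN-γ production. The signaling members of the family recruit MyD88 and IRAK kinases and activate NF-κB.

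The genes lie as neighbors on mouse chromosome 1, in the order Il1r2, Il1r1, Il1rl2, Il1rl1, Il18r1 and Il18rap. Promoter windows of RefSeq, 300 bases each on build GRCm38.p6, were matched by symbol for all 4 receptors, with 1 window for Il1r2, 2 for Il1rl1, 3 for Il18r1 and 1 for Il18rap. They are shown because the groups differed in the use of sIL-2, IL-21 or the Trikine, and IL-2 and IL-21 signal through STAT transcription factors. Letters matching the palindrome TTCNNNGAA, which STAT proteins bind, stood in the Il1r2 window and in 1 of the Il18r1 windows, and are in capitals below. The Il1r2 window is chr1:40085843-40086142 and the Il18r1 window is chr1:40465756-40466055, both on the plus strand.
Il1r2 promoter: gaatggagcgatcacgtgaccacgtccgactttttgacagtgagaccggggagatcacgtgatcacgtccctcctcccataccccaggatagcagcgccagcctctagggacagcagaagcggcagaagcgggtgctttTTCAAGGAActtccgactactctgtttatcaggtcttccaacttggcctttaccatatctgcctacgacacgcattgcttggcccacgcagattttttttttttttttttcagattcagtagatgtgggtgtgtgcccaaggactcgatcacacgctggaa
Il18r1 promoter: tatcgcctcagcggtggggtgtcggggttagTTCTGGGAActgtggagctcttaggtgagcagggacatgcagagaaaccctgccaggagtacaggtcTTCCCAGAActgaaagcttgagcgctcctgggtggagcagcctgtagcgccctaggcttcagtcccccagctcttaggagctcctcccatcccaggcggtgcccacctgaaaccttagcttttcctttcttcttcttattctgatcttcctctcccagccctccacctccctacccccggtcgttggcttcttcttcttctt
The match in the Il1r2 window began 111 bases before the start site and the matches in the Il18r1 window began 219 and 152 bases before it. No window of Il1rl1 or Il18rap held these letters, and 8.30% of all 32851 RefSeq promoter windows of this length did. The Il1r2 window also held CACGTG at 2 positions, a motif found in 7.15% of all windows. Of the other motifs searched on both strands, no window of the 4 genes held TGANTCA (AP-1, in 7.81% of all windows), the NF-κB motif (0.411%), the paired motif of interferon regulatory factors (3.44%), AGGTGNGA (T-box factors, 5.43%), the steroid receptor palindrome (0.0578%) or TGTTCT (19.0%), which overlaps some matches of that palindrome. The common motifs CTTTG (TCF, 53.9%) and TGCNCNC (metal response, 51.0%) stood in windows of Il1rl1 and Il18rap and of Il1rl1 and Il18r1, respectively. These are matches of letters, not measured binding.

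The decoy receptor Il1r2 was the member with the widest differences between libraries. Its summed level was 19.6 CPM (18.8 to 20.4, 2552 UMIs) in sIL-2, 9.67 CPM (9.20 to 10.1, 1612 UMIs) in the Trikine library and 61.5 CPM (60.3 to 62.7, 10335 UMIs) in sIL-2 + IL-21. The sIL-2 + IL-21 library stood highest and the Trikine library lowest, and no counting intervals overlapped. The level in sIL-2 + IL-21 was 3.14-fold that in sIL-2 (3.004 to 3.28) and 6.36-fold that in the Trikine library (6.04 to 6.71). The Trikine library had 0.493-fold the level of sIL-2 (0.463 to 0.525).

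Il1rl1, the IL-33 receptor, followed the same order at a low level. It had 5.16 CPM in sIL-2 (672 UMIs), 3.23 CPM in the Trikine library (538 UMIs) and 6.96 CPM in sIL-2 + IL-21 (1169 UMIs). The ratio of sIL-2 + IL-21 to sIL-2 was 1.35-fold (1.22 to 1.48) and to the Trikine library 2.16-fold (1.95 to 2.39), while the Trikine library had 0.625-fold the sIL-2 level (0.557 to 0.701).

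The IL-18 receptor chains had another order, with sIL-2 highest. Il18r1 had 242 CPM in sIL-2 (31487 UMIs), 176 CPM in the Trikine library (29395 UMIs) and 199.6 CPM in sIL-2 + IL-21 (33535 UMIs). Il18rap had 157 CPM, 118 CPM and 124 CPM in the same order (20450, 19758 and 20839 UMIs). Both chains were lower in the other libraries than in sIL-2 by similar amounts, 0.729-fold and 0.754-fold for the Trikine library and 0.825-fold and 0.790-fold for sIL-2 + IL-21 (Il18r1 first). The Il18rap levels of the latter libraries were close, with a ratio of 1.05-fold (1.03 to 1.07).

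**Figure D1:**
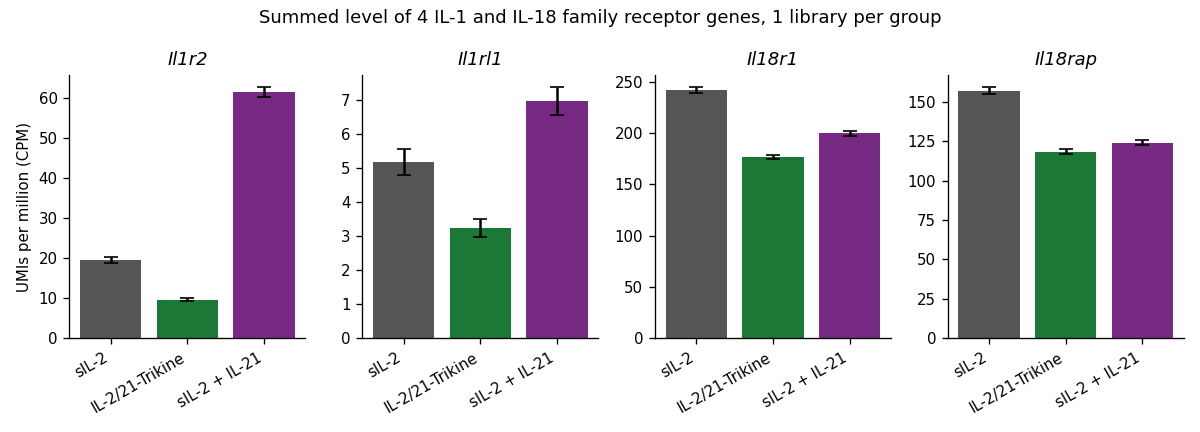
Summed level in CPM (y axis, a separate linear scale per gene) of the 4 receptor genes in the 3 libraries. Bars are 1 library each and error bars are exact 95% Poisson intervals. Il1r2 and Il1rl1 were highest in sIL-2 + IL-21, at 61.5 and 6.96 CPM, and Il18r1 and Il18rap in sIL-2, at 242 and 157 CPM.

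Across the 11275 genes with a mean of at least 1 CPM, few genes differed as much as Il1r2. A log2 ratio of at least 1 was reached by 0.275% of genes for the Trikine library over sIL-2, 1.21% for sIL-2 + IL-21 over sIL-2 and 1.76% for sIL-2 + IL-21 over the Trikine library. A ratio of at most -1 was reached by 1.28%, 1.95% and 0.976%, respectively. Of the 4 receptors, Il1r2 passed in all 3 comparisons, with log2 ratios of -1.02, 1.65 and 2.67, and Il1rl1 in the last alone, with 1.11 against -0.68 and 0.43 in the others. Il1r2 ranked 27th from the top for sIL-2 + IL-21 over sIL-2, 10th from the top for sIL-2 + IL-21 over the Trikine library and 137th from the bottom for the Trikine library over sIL-2. Il18r1 and Il18rap stayed within 0.46 log2 units. Since the members were chosen on these ratios, the ranks describe Il1r2 and support nothing further.

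The libraries differed in the share of cells with an Il1r2 UMI and less so in the Il1r2 UMIs per positive cell. A single UMI was found in 41.9%, 52.4% and 36.6% of the positive cells. At such low counts a higher level in every cell would also appear mainly as more positive cells. The values therefore do not separate more expressing cells from more transcript per cell. At full depth, 756 cells of sIL-2 (9.74%), 683 of the Trikine library (5.14%) and 2831 of sIL-2 + IL-21 (28.9%) had an Il1r2 UMI. When every cell was thinned to 2000 UMIs, which left out 266, 1775 and 364 shallower cells, the shares were 2.19% (1.87 to 2.55), 1.24% (1.05 to 1.46) and 7.91% (7.37 to 8.47). The order of the libraries was thus the same at equal depth. At full depth, a positive cell held 3.38, 2.36 and 3.65 Il1r2 UMIs on average, and at least 6 UMIs were found in 126, 58 and 561 cells. These counts per cell were not matched for depth. The 1% of cells with most Il1r2 held 38.8%, 50% and 18.0% of its UMIs, a share that also depends on how few cells were positive. For Il1rl1 it was 38.5%, 50.9% and 29.3%.

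**Figure D2:**
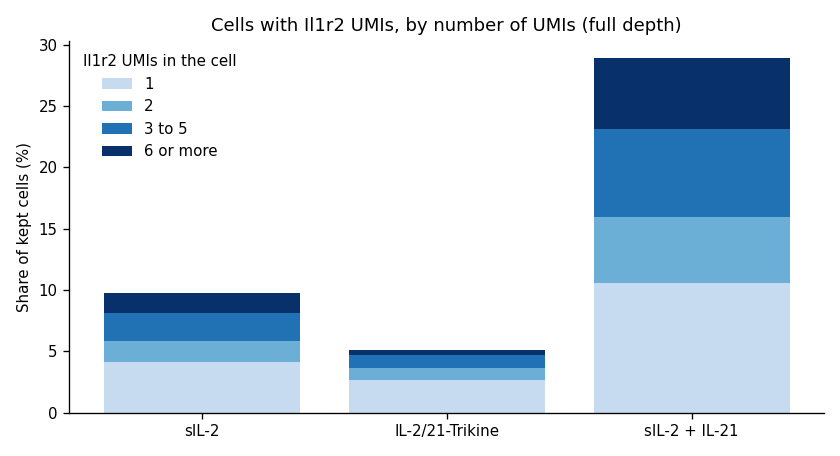
Share of kept cells (y axis, %) with Il1r2 UMIs in each library (x axis) at full depth, with shades for cells holding 1, 2, 3 to 5, or 6 or more UMIs. The whole bars reach 9.74% in sIL-2, 5.14% in the Trikine library and 28.9% in sIL-2 + IL-21, where 561 cells held 6 or more UMIs.

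Il1rl1 was scattered at 1 or 2 UMIs per cell. It was detected in 434 cells of sIL-2 (5.59%), 397 of the Trikine library (2.99%) and 791 of sIL-2 + IL-21 (8.07%), and 68.9%, 76.8% and 70.8% of these cells had a single UMI. After thinning to 2000 UMIs the shares were 0.841%, 0.512% and 1.25%. By contrast, Il18r1 was found in 80.7%, 67.5% and 80.8% of cells and Il18rap in 77.4%, 60.8% and 74.5%. After thinning, these became 37.0%, 29.1% and 34.1% for Il18r1 and 27.4%, 21.4% and 23.4% for Il18rap, so that sIL-2 was highest for both chains at equal depth.

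The cells that carried the receptors had T cell transcripts. Of the Il1r2-positive cells, all 756 in sIL-2, 674 of 683 in the Trikine library and 2817 of 2831 in sIL-2 + IL-21 also had a UMI of Cd3e, Cd3d or Cd3g, and 99.3%, 97.1% and 99.2% had Cd8a or Cd8b1. Every Il1rl1-positive cell had a Cd3 UMI. Among all kept cells, 98.6%, 95.9% and 98.3% had a Cd3 UMI, as had 92.9%, 79.6% and 85% of the myeloid-marked barcodes. A Cd3 UMI thus did little to separate T cells from mixed barcodes. Myeloid-marked barcodes held 1.49%, 2.73% and 0.435% of all Il1r2 UMIs. The wider class with at least 2 markers of 1 other cell type numbered 241, 193 and 187 barcodes. It held 9.21%, 6.39% and 4.28% of the Il1r2 UMIs, at 33.7, 22.4 and 74.2 CPM. These barcodes were deep, with medians of 22501, 18995 and 25200 UMIs, and 25.7%, 19.7% and 50.8% of them had Il1r2. Few barcodes could show the level of free RNA. Those with at least 10 melanoma UMIs numbered 5, 9 and 2, of which 0 had Il1r2, and upper binomial limits of 52.2%, 33.6% and 84.2% set no useful background. Barcodes without any Cd3 UMI numbered 106, 550 and 171 and were shallow, with medians of 1078, 784 and 814 UMIs. Of these, 0, 9 and 14 had Il1r2, or 0% (up to 3.42%), 1.64% (0.751 to 3.08) and 8.19% (4.55 to 13.4). The limit for sIL-2 overlapped the interval of the Trikine library. The Il1r2 level of the barcodes without Cd3 was 0, 21.8 and 128 CPM, against 19.6, 9.67 and 61.5 CPM in all kept cells. The myeloid-marked ones among them, 2, 10 and 3 barcodes, had 0, 7 and 5 Il1r2 UMIs, or 0, 228 and 452 CPM. Whether the barcodes without Cd3 were T cells, myeloid cells or free RNA was not tested, and they held 0%, 0.744% and 0.213% of the Il1r2 UMIs. Markers of mast cells and basophils, which also express Il1rl1, summed to 14.2, 9.22 and 7.24 CPM. At least 1 of these 6 markers had UMIs in 12.4%, 7.18% and 8.73% of cells, and at least 2 in 79, 38 and 41 cells. Cpa3, Mcpt8 and Kit had UMIs in every library. Tpsb2 was at 0 in every library and Fcer1a and Ms4a2 were at 0 in the sIL-2 and sIL-2 + IL-21 libraries. Positive cells were deeper than negative ones (median 24336.5 against 12127 UMIs in sIL-2, 21046 against 9903 in the Trikine library and 23169 against 11291 in sIL-2 + IL-21), so negative cells were weighted to the depth deciles of the positive cells in what follows.

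Il1r2-positive cells had more transcripts of cytotoxic and metal-binding proteins and less of Tcf7 than negative cells of the same library. With all cells kept, 0.0749% of 5344 genes had a log2 ratio of at least 1 over negative cells in all 3 libraries, and these 4 genes were S100a8, S100a9, Cxcl2 and Il1b, transcripts typical of neutrophils and other myeloid cells. S100a9 averaged 101, 113 and 34.9 CPM in positive cells against 0.360, 1.39 and 0.0310 CPM in negative cells. Without the myeloid-marked barcodes, chosen after the data were seen, 0 genes reached this limit. S100a8, S100a9 and Cxcl2 are themselves markers of these barcodes, so their fall was set by the definition. The genes described next are those of the cells without these barcodes, ranked by their lowest ratio over the libraries, and most of them also followed the 4 myeloid transcripts when all cells were kept.

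Prf1, which encodes the pore-forming perforin, led this ranking with 349 against 163 CPM in sIL-2, 229 against 80.8 CPM in the Trikine library and 362 against 203 CPM in sIL-2 + IL-21. Its log2 ratios were 1.09, 1.495 and 0.83. Mt1 and Mt2, metallothioneins that bind zinc and copper, followed with log2 ratios of 1.004, 1.53 and 0.79 and of 0.92, 1.55 and 0.82. The granzymes Gzmf (1.19, 2.06 and 0.73), Gzmd (1.39, 1.85 and 0.70), Gzme (1.36, 1.99 and 0.64) and Gzmc (1.08, 1.28 and 0.52) were higher in all libraries, whereas Gzmg was higher in sIL-2 and the Trikine library (0.97 and 1.98) and lower in sIL-2 + IL-21 (-0.41). Havcr2, the gene of the inhibitory receptor TIM-3, had 0.70, 1.33 and 0.76. The other genes among the 15 were Basp1, Igfbp7, Mtss1, Filip1, Tmem163, Serpine2 and Gipc2, of which Mtss1, Tmem163, Serpine2, Gipc2 and the granzyme Gzmc entered when the myeloid-marked barcodes were left out. Neat1 left the ranking. Basp1 went from 1.34, 1.54 and 0.85 with all cells to 0.86, 1.12 and 0.83. For all of these genes but Serpine2 the ratio was widest in the Trikine library.

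Among the genes that were lower in Il1r2-positive cells, Tcf7 led the ranking. Tcf7, which encodes TCF-1, a factor of stem-like T cells, had 23.5 against 55.1 CPM in sIL-2, 24.5 against 56.7 CPM in the Trikine library and 8.30 against 23.0 CPM in sIL-2 + IL-21, or log2 ratios of -1.19, -1.18 and -1.37. It was the only gene at -1 or below in all libraries, 0.0187% of those examined with all cells kept. Aff3 (-0.87, -0.87 and -1.21) and the chemokine receptor gene Cxcr3 (-0.67, -0.76 and -0.67) came next, before Sidt1, Atp10d, Sh3bp5, Kif22, Neil3, Nusap1 and the noncoding Gm26740. Of these, Kif22, Neil3 and Nusap1 are genes of dividing cells.

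**Figure D3:**
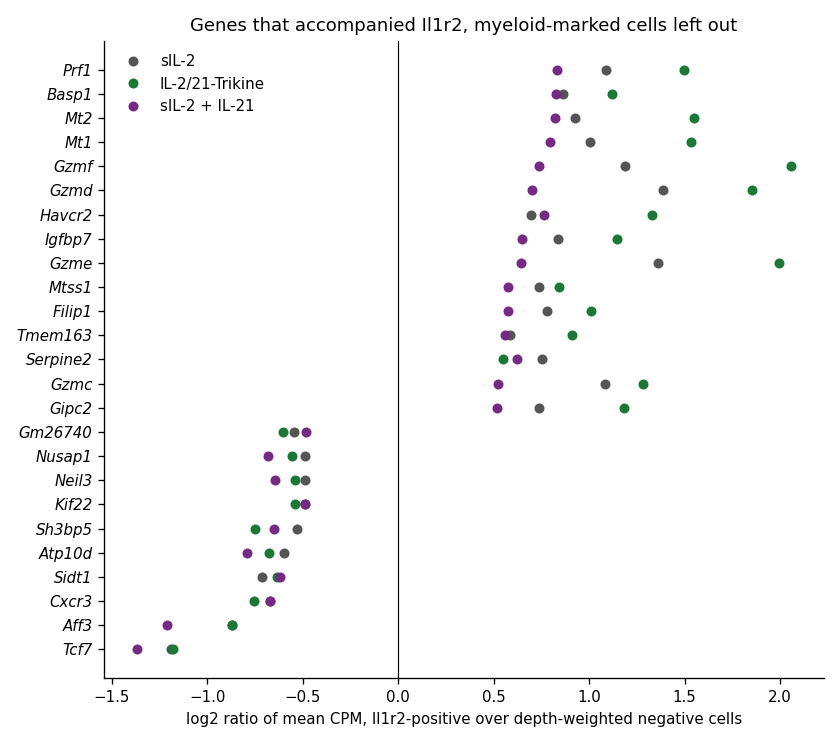
The log2 ratio of mean CPM in Il1r2-positive over negative cells of the same library (x axis; negative cells weighted to the UMI deciles of the positive cells) for the 15 highest and 10 lowest genes (y axis), without the myeloid-marked barcodes. Each point is 1 library. Prf1 leads with 1.09, 1.495 and 0.83, and Tcf7 is lowest with -1.19, -1.18 and -1.37.

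By gene lists, the late granzymes had median log2 ratios of 1.19, 1.98 and 0.64 in Il1r2-positive cells and 4 of 5 were above 0 in all libraries. Of all 5338 genes, 1188 were above 0 and 2329 below 0 in all libraries, with medians of -0.04, -0.03 and -0.02. Of the 6 stem and memory genes with enough signal, 3 were lower in all libraries (Tcf7, Klf2 and Bcl2) and 1 was higher (Il7r), with medians of -0.14, -0.091 and -0.27. Of the checkpoint receptors, 4 of the 5 with enough signal were above 0 in all libraries, among them Pdcd1, the gene of PD-1 (0.59, 0.67 and 0.47), and Entpd1, the gene of CD39 (0.30, 0.70 and 0.37), while Ctla4 was mixed. All 9 cycling genes with enough signal were lower, with medians of -0.41, -0.35 and -0.45. Without the weighting by depth, and with all cells kept, the direction turned for Nusap1 and Cenpf, whose median ratios over the libraries were 0.26 and 0.36. In summed counts, the proliferation gene Mki67 had 178 CPM in cells of the Trikine library without Il1r2 and 189 to 232 CPM in the classes with it, and 125 CPM against 83.4 to 189 CPM in sIL-2. Cytokine genes were mixed, with Ifng at -0.06, 0.65 and 0.03 and Xcl1 at -0.40, -0.15 and -0.51. Among the adaptors and kinases that act below the signaling receptors of the family, 7 of 11 were lower in all libraries and 1 was higher, against 2329 and 1188 of all 5338 genes, and the medians were small (-0.08, -0.13 and -0.05), with Nfkb1 at -0.25, -0.28 and -0.20.

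Some of these genes were also graded by the number of Il1r2 UMIs. Prf1 was higher in each next class in every library, from 133 CPM in cells without Il1r2 to 673 CPM in those with 6 or more UMIs in sIL-2, from 70.8 to 435 CPM in the Trikine library and from 166 to 576 CPM in sIL-2 + IL-21. Gzmc did so as well, from 1776 to 6647, 1478 to 6363 and 3376 to 7337 CPM. In sIL-2, Gzmf, Havcr2 and Basp1 were higher in every class with Il1r2 than without it, but not in each next class. Gzmf there had 457 CPM without Il1r2, 2132 CPM at 2 UMIs and 1177 CPM at 3 to 5. In sIL-2 + IL-21, Gzmf had 1635 CPM at 1 UMI and 1581 CPM at 2. Mt1 went from 638 to 1754 CPM in sIL-2 + IL-21 and from 152 to 1148 CPM in the Trikine library, but in sIL-2 it reached 543 CPM at 3 to 5 UMIs and 463 CPM above. Tcf7 dropped already at the first UMI, from 67.9 to 29.3 CPM in sIL-2, 63.5 to 30.9 CPM in the Trikine library and 33.2 to 9.51 CPM in sIL-2 + IL-21. Il1rl1 was also higher in cells with 6 or more Il1r2 UMIs than in those with none, with 7.67 against 4.80 CPM, 9.65 against 2.77 CPM and 10.4 against 5.27 CPM. Il18r1 had narrow ranges over the classes, between 213 and 266 CPM in sIL-2, between 173 and 179 CPM in the Trikine library, and between 186 and 207 CPM in sIL-2 + IL-21. In sIL-2 + IL-21 the highest Il18r1 value was that of cells without Il1r2. Il18rap had 133 CPM there without Il1r2 and 108 to 119 CPM with it. In sIL-2 it had 160 against 135 to 153 CPM, and in the Trikine library 119 against 101 to 130 CPM. The genes in this paragraph were picked after the ratios had been seen, and the median depth was higher in cells with more Il1r2, in sIL-2 from 12118 to 31218 UMIs.

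**Figure D4:**
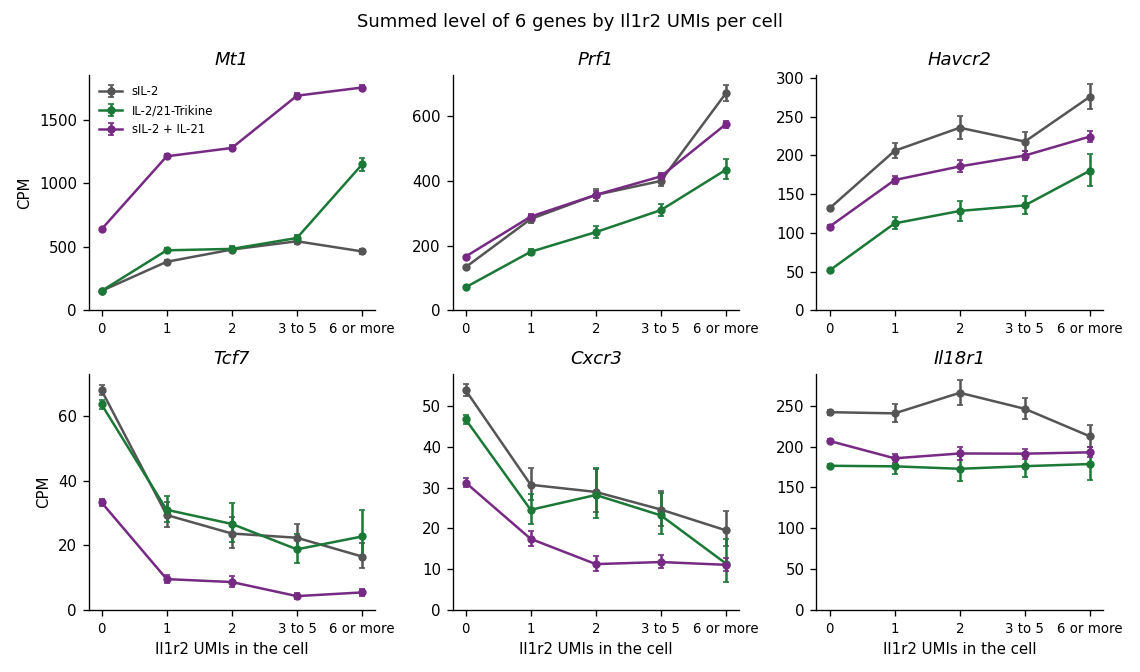
Summed CPM (y axis, linear) of Mt1, Prf1, Havcr2, Tcf7, Cxcr3 and Il18r1 in cells with 0, 1, 2, 3 to 5, or 6 or more Il1r2 UMIs (x axis) in each library, without the myeloid-marked barcodes. Points are sums over the cells of 1 library with exact 95% Poisson intervals. Prf1 is higher in each next class (133 to 673 CPM in sIL-2), and Tcf7 is lower from the first UMI on (67.9 to 29.3 CPM in sIL-2).

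The receptors were then compared inside and outside cells that carry a gene list. Carrying was judged on counts thinned to 2000 UMIs, but receptor levels are CPM of full counts, without weighting by depth. Such a set of cells is a range of expression and not a cell type. Cells with UMIs of at least 2 late granzymes made up 13.9% of sIL-2, 6.73% of the Trikine library and 29.2% of sIL-2 + IL-21. In them Il1r2 had 39.6, 33.8 and 86.9 CPM, against 14.1, 6.78 and 45.5 CPM in the other cells. Metallothionein-carrying cells made up 4.67%, 4.45% and 21.9% of the libraries, with Il1r2 at 43.9, 32.0 and 87.9 CPM against 17.6, 8.16 and 49.5 CPM. Il1r2 was also higher in cells with checkpoint receptors (log2 0.76, 0.98 and 0.59). The same held in cells with UMIs of at least 2 cytokine genes (0.55, 0.32 and 0.40), although cytokine genes were mixed in the depth-weighted comparison above. Il1r2 was lower in interferon-stimulated cells (-1.08, -1.53 and -0.39) and in cells with stem and memory genes (-0.24, -0.70 and -0.36). For cycling cells over the others the direction was mixed (-0.57, 0.14 and -0.35), with an interval of -0.01 to 0.28 in the Trikine library.

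Differences in Il1r2 between libraries were smaller within granzyme-carrying cells than outside them. Inside, the log2 ratio of the Trikine library over sIL-2 was -0.23 (-0.38 to -0.08), against -1.06 (-1.18 to -0.94) outside. The ratio of sIL-2 + IL-21 over sIL-2 was 1.13 inside and 1.69 outside, and that over the Trikine library was 1.36 inside and 2.75 outside. Within metallothionein-carrying cells the 3 ratios were -0.46, 1.002 and 1.46, against -1.11, 1.49 and 2.60 outside. Thus sIL-2 + IL-21 was highest inside and outside both sets. In cycling cells, which were 13.7%, 25.0% and 35.0% of the libraries, the ratios were -0.50, 1.91 and 2.41. The share of granzyme-carrying cells was lowest in the Trikine library and highest in sIL-2 + IL-21, as was Il1r2. That of metallothionein-carrying cells was also highest in sIL-2 + IL-21, but close between the Trikine library and sIL-2 (4.45% and 4.67%). The part of these shares in the summed Il1r2 difference was not tested.

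By wider ratios than Il1r2, Il1rl1 was also higher in cells with cytokine transcripts. Its level was 7.43 CPM in cells with UMIs of at least 2 cytokine genes and 1.54 CPM in the others in sIL-2, 4.43 against 1.22 CPM in the Trikine library and 9.03 against 3.37 CPM in sIL-2 + IL-21. Such cells were 55.3%, 57.4% and 59.0% of the libraries and held 88.5%, 86.0% and 82.4% of the Il1rl1 UMIs. With all cells kept, all 9 cytokine genes were above 0 in Il1rl1-positive cells in every library. Their medians were 1.55, 1.44 and 1.30, and 5 passed a log2 ratio of 1 throughout. Of all 5332 genes, 1961 were above 0 in every library and 8 passed 1, or 0.15%. The leading genes were Ccl3 (1.87, 2.00 and 1.55) and Xcl1 (1.82, 1.70 and 1.47), which encode chemokines, Crabp2 (1.80, 1.64 and 1.39), which encodes a retinoic acid carrier, Ifng (1.73, 1.45 and 1.37) and the chemokine gene Ccl1 (1.52, 1.44 and 1.30). Il1rl1 was lower in cells with stem and memory genes (-0.87, -0.85 and -0.61) and higher in cycling cells (0.50, 0.46 and 0.50). The cycling difference was not seen with weighting by depth. There, 0 of 10 cycling genes were above 0 in Il1rl1-positive cells of every library and 3 were below, with medians of 0.02, -0.18 and 0.01. Cells with 2 genes of type 2 or regulatory T cells were 2.01%, 2.12% and 1.62% of the libraries, and there the Il1rl1 ratio was 1.09 (0.55 to 1.59), -0.62 (-1.84 to 0.37) and 0.46 (-0.19 to 1.04), so that no common direction was seen.

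The IL-18 receptor chains had narrow ranges over the same sets of cells. Il18r1 had 272 against 219 CPM in cells with stem and memory genes in sIL-2, 190.0 against 160.3 CPM in the Trikine library and 228 against 182 CPM in sIL-2 + IL-21. It was also higher in cells with checkpoint receptors (log2 0.23, 0.25 and 0.35) and interferon-stimulated cells (0.22, 0.33 and 0.56) and lower in metallothionein-carrying cells (-0.31, -0.36 and -0.57) and cycling cells (-0.35, -0.25 and -0.39). Il18rap was lower in the latter sets too, by ratios of -0.40, -0.24 and -0.54 and of -0.47, -0.25 and -0.52. With weighting by depth and all cells kept, cycling genes were not lower in Il18r1-positive cells. Of the 8 with enough signal, 5 were above 0 and 0 below 0 in all libraries (medians 0.37, 0.14 and 0.08). Of all 5309 genes, 2174 were above and 1649 below 0. In Il18rap-positive cells, 3 cycling genes were above and 3 below 0 (medians -0.02, 0.06 and -0.01). In cytokine-carrying cells the chains parted in this split without depth weighting. Il18rap was higher in all libraries (0.24, 0.09 and 0.13). Il18r1 was lower in sIL-2 and the Trikine library (-0.14 and -0.15) and higher in sIL-2 + IL-21 (0.10). With weighting by depth, 7 of 9 cytokine genes were below 0 and 0 above in Il18r1-positive cells of all libraries (medians -0.46, -0.44 and -0.53). In Il18rap-positive cells, 3 of 8 were above and 1 below 0 (medians 0.35, -0.01 and 0.04).

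**Figure D5:**
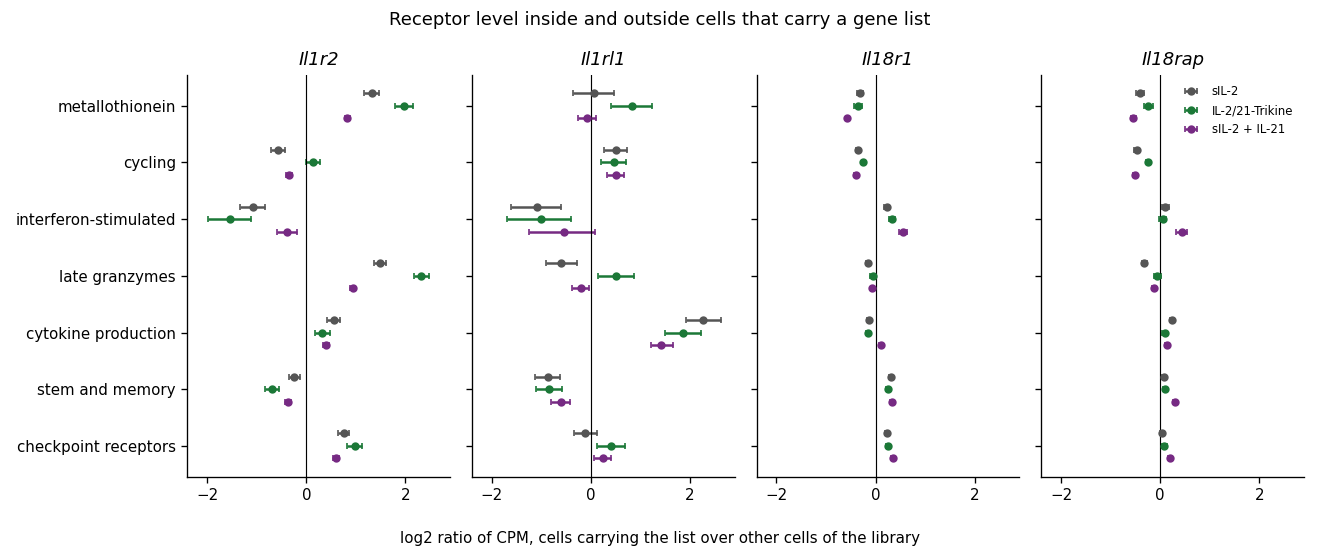
The log2 ratio of CPM (x axis) of each receptor in cells that carry a gene list (y axis) over the other cells of the same library, with 95% counting intervals; each point is 1 library. The ratio of Il1r2 was highest for granzyme-carrying cells (1.49, 2.32 and 0.93), that of Il1rl1 for cytokine-carrying cells (2.27, 1.85 and 1.42), and Il18r1 was lower in metallothionein-carrying cells (-0.31, -0.36 and -0.57).

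With all cells kept, the accessory chain was the gene that most accompanied Il18r1. Il18rap had 194.9 against 109 CPM in Il18r1-positive over negative cells of sIL-2, 148 against 95.04 CPM in the Trikine library and 158 against 99.9 CPM in sIL-2 + IL-21. The next genes were Gm26740 (0.60, 0.70 and 0.80), Il7r, the gene of the IL-7 receptor α chain (0.85, 0.54 and 0.56), Dscam and Ust. Il2 (-1.59, -1.26 and -1.43) and Il3 (-1.21, -1.53 and -1.10) were lower in Il18r1-positive cells. With Il18rap, and again with all cells kept, the leading genes were Il18r1 (0.87, 0.63 and 0.60), the activation-induced factor gene Egr3 (0.58, 0.67 and 0.66), the growth factor gene Csf1 (0.56, 0.55 and 0.67), Nrgn and Runx1. Without the myeloid-marked barcodes, Egr3 (0.63, 0.66 and 0.66) stood before Il18r1, and Nr4a1 took the place of Runx1.

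Pairs of receptors were counted in the same cells and set against the number given by independence within depth deciles. Il18r1 and Il18rap were together in 5186 cells of sIL-2, 6355 of the Trikine library and 6264 of sIL-2 + IL-21, or 1.05, 1.06 and 1.03 times the expected number. In cells thinned to 2000 UMIs, where fewer cells are positive for both by depth, the ratios were 1.20, 1.23 and 1.21. Il1r2 and Il1rl1 were together in 94, 72 and 443 cells, 1.16 (0.94 to 1.42), 1.55 (1.21 to 1.95) and 1.19 (1.08 to 1.31) times the expected number. At 2000 UMIs these were only 2, 6 and 21 cells, with ratios of 1.45 (0.176 to 5.24), 8.20 (3.01 to 17.8) and 2.25 (1.39 to 3.44). Il1r2 with either IL-18 receptor chain was within 1.01 to 1.06 times the expected number at full depth. At 2000 UMIs the ratios with Il18rap were 1.23, 1.24 and 1.08 and those with Il18r1 were 1.04, 1.11 and 1.03, and all these intervals included 1. At full depth, 92.2%, 85.5% and 90.4% of Il1r2-positive cells also had Il18r1.

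Few other genes of the pathway passed 1 log2 unit between libraries, and most were somewhat lower than in sIL-2. Il1r1, the signaling IL-1 receptor that competes with Il1r2 for ligand, had only 4 UMIs in sIL-2, 16 in the Trikine library and 12 in sIL-2 + IL-21. The shared accessory chain gene Il1rap had 11.2, 10.7 and 8.16 CPM, and Sigirr, an inhibitory member of the family, 21.9, 18.4 and 18.6 CPM. Of the ligands, Il1b had 6.08, 8.11 and 3.01 CPM and Il18 had 2.81, 2.72 and 2.03 CPM, while Il33 had at most 0.0614 CPM. Il1b was 1 of the 4 myeloid transcripts above, and the myeloid-marked barcodes numbered 28, 49 and 20. How much of the Il1b level came from those barcodes was not tested. Gm16894, an antisense gene at the Il1r2 locus, had 50, 53 and 151 UMIs. Of 54 pathway genes, 44 passed 1 CPM. No pathway gene had a log2 ratio of at least 1 over sIL-2, and those at -1 or below, with 0.1 CPM added to each level, were Il1rapl1 and Nlrp3 for the Trikine library and Il1rapl1 for sIL-2 + IL-21. They were 4.55% and 2.27% of the 44 genes, against 1.28% and 1.95% of all genes. Without the added 0.1 CPM, Il1b was at -1.01 for sIL-2 + IL-21 over sIL-2. In sIL-2 + IL-21 over the Trikine library, Nlrp3, an inflammasome sensor gene, was higher (1.07) and Il1b lower (-1.43). The medians of the 44 genes were -0.23, -0.32 and -0.05, against -0.08, -0.08 and 0.00 for all genes. Within the list, Nfkb1 was lower in both other libraries than in sIL-2 (-0.56 and -0.73), and Il12rb2, a chain of the IL-12 receptor, was level (-0.04 and -0.02). Of the 44 pathway genes, 39 and 38 were below 0 in the comparisons with sIL-2, against 7037 and 6681 of all 11275 genes. Among them were 17 and 16 of the 18 adaptors and kinases, and 6 and 6 of the 7 common gamma chain receptors. Mt2 had 116, 91.2 and 536 CPM, and Mt1 had a log2 ratio of 2.31 for sIL-2 + IL-21 over sIL-2 and -0.085 for the Trikine library over sIL-2.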

How the data were processed

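Droplet-based 3' single-cell RNA-seq of sorted tumor-infiltrating pmel T cells was used, with 1 library per group. The deposited counts are UMIs per gene and cell that the authors made with Cell Ranger count 9.0.0, with intronic reads included. The methods name the mouse reference GRCm39 2024-A and the submitters' processing notes name mm10. Cells were kept at 500 to 120000 UMIs and at most 20% mitochondrial UMIs, as in the study. Between 45 and 73 cells per library were removed, and total UMIs were 130200802, 166772854 and 168041089 (in the order of the report). Doublets were not called. Leaving out the 5% of cells with most UMIs was an alternative.

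Counts were summed per library and given as CPM. Ratios have conditional binomial intervals, levels exact Poisson intervals and shares exact binomial intervals, all for counting error only. With 1 library per group no test was possible. For shares at equal depth, 2000 UMIs were drawn from every deeper cell. Genes of positive cells were compared as mean CPM per cell plus a pseudocount of 1 CPM, for genes of at least 20 CPM, with negative cells weighted over 10 depth deciles. Co-detection of receptor pairs was set against independence within the same deciles, or in thinned cells. Named genes were the 4 receptors, the listed genes, the 15 highest and 10 lowest by the least favorable library for Il1r2, and the 5 highest for the others, without receptor and immunoglobulin segments. Ratios across all genes used a pseudocount of 0.1 CPM. The members and gene lists were chosen with earlier results of these data known. The scripts were tested on simulated data. Python 3.11.15, scipy 1.17.1, edgeR 4.0.16 and DESeq2 1.42.0 (scaling factors only) were used.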

Additional observations from a re-analysis of the deposited data

How the results depend on the processing

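No paired analysis was possible because each group had 1 library. Every library ratio of the 4 receptors kept its direction under the 8 alternatives run. For Il1r2, IL-2/21-Trikine over sIL-2 was -0.79 with each cell weighted equally and -1.14 without the 5% of cells with most UMIs. For sIL-2 + IL-21 over sIL-2 it was 1.85 with each cell weighted equally, 1.73 with TMM factors and 1.73 with DESeq2 size factors, and over IL-2/21-Trikine it was 2.85 without the 5% of cells with most UMIs. For Il1rl1, IL-2/21-Trikine over sIL-2 was -0.86 without the deepest 5%, and sIL-2 + IL-21 over IL-2/21-Trikine was 1.39 with equal weights and 1.32 without the deepest 5%. For Il18r1, IL-2/21-Trikine over sIL-2 was -0.38 with TMM factors and -0.38 with DESeq2 factors, sIL-2 + IL-21 over sIL-2 was -0.23 with equal weights, -0.20 with TMM and -0.20 with DESeq2 factors, and sIL-2 + IL-21 over IL-2/21-Trikine was 0.22 with equal weights. For Il18rap, IL-2/21-Trikine over sIL-2 was -0.34, -0.33 and -0.33 and sIL-2 + IL-21 over sIL-2 was -0.27, -0.26 and -0.26 under equal weights, TMM and DESeq2 factors.

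The count of genes past 1 log2 unit in Il1r2-positive cells in all libraries depended on the setting. The 4 higher genes became 1 with at least 2 Il1r2 UMIs, 13 without weighting by depth, 11 with thinned cells, 8 with a floor of 5 CPM and 0 without barcodes carrying 2 markers of another cell type or without the myeloid-marked barcodes (the latter added after seeing the data). The 1 lower gene became 0, 16 and 7 under the first 3 settings. S100a9 (-0.034) and S100a8 (-0.070) reversed without barcodes carrying 2 markers of another type, and S100a8 (-0.071) also without the myeloid-marked ones. Both genes are among the markers that define the barcodes left out, so their fall was set by that definition. The cycling genes Nusap1 (0.26), Cenpf (0.36), Kif22 (0.40) and Aspm (0.084) reversed without weighting by depth. When 1 more gene of the list was required, Il1r2 in metallothionein-carrying cells of sIL-2 + IL-21 went to -0.054. In sIL-2 cells carrying type 2 or regulatory genes, Il1r2 went to 2.81 and Il18rap to -0.93. At 5000 UMIs the latter were 0.082 and -0.036. Under the main limit, 2023 of the 2062 metallothionein-carrying cells of sIL-2 + IL-21 stood exactly at it. So did 144 of the 151 sIL-2 cells carrying type 2 or regulatory genes. The values with 1 more gene thus rest on few cells. Pathway genes past 1 log2 unit became 1 at 10 CPM and 4 without a floor, against 2, for IL-2/21-Trikine over sIL-2, 4 without a floor, against 1, for sIL-2 + IL-21 over sIL-2, and 0 at 10 CPM, against 2, for sIL-2 + IL-21 over IL-2/21-Trikine. The cause was not tested where a setting does not show it. With 1 library per group, differences between mice or preparations cannot be told apart from the treatment.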
